A study of Mus musculus with 6 samples.

Results

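The genes of V(D)J recombination, the cutting and joining of DNA by which B and T cells assemble their antigen receptor genes, were followed in B cells of Eµ-Myc mice. Members were the array probe sets whose gene symbol was on a list of 10: the lymphoid-specific Rag1, Rag2 and Dntt, and the general end-joining genes Dclre1c, Prkdc, Xrcc4, Xrcc5, Xrcc6, Lig4 and Nhej1. Of these, 9 were measured, each by 1 probe set, among 19938 genes, and Dclre1c was not analysed here. The lymphoid-specific genes and Lig4 were lower in Ezh2-hairpin lymphomas than in premalignant B cells, by 2.71-fold for Lig4, 3.26-fold for Rag1, at least 2.96-fold for Rag2 and at least 2.59-fold for Dntt, the last 2 as bounds because their lymphoma signal reached the low end of the array. Xrcc6 was lower by 1.46-fold, and the differences of Prkdc, Xrcc4, Xrcc5 and Nhej1 from premalignant cells did not pass the test.

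The 6 arrays formed 3 groups of 2. The first held sorted B cells from the spleen of Eµ-Myc mice before malignancy, from independent preparations. These are the controls, and the labels also call them normal. The others were Eµ-Myc lymphomas expressing 1 of 2 short hairpin RNAs against Ezh2, shEzh2.781 or shEzh2.556, the gene of a histone H3 methyltransferase. In all groups the Myc oncogene is driven by an immunoglobulin heavy chain enhancer, which is active in the B lineage. CD43 beads had been used to remove other cells from the lymphomas, of which 95% or more of the cells carried B220 and GFP, per the labels. Every lymphoma carried a hairpin against Ezh2, so malignancy, the hairpin and the way of purification cannot be told apart in any comparison with premalignant cells. The labels do not say whether the arrays of 1 hairpin are of different mice, and p-values then measure only the spread between these samples. Ezh2 itself read 12.64 and 12.70 (log2 signal) in premalignant cells, 10.92 and 11.07 with shEzh2.781, and 11.20 and 11.30 with shEzh2.556. It was lower in the lymphomas by 1.55 (SE 0.10) on the log2 scale (limma, adjusted p = 1.31e-06), and its difference between hairpins was -0.26 (adjusted p = 0.151).

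The recombinase is a complex of the RAG1 and RAG2 proteins, which binds recombination signal sequences beside V, D and J segments and cuts the DNA there. The products of Xrcc6 and Xrcc5 form the Ku dimer, which holds broken ends and recruits the kinase encoded by Prkdc and the hairpin-opening nuclease encoded by Dclre1c. DNA ligase IV, the product of Lig4, seals the ends together with XRCC4 and the factor encoded by Nhej1, while terminal transferase, encoded by Dntt, adds bases without a template. Rag1, Rag2 and Dntt are expressed in developing lymphocytes, whereas the end-joining genes act in cells of all kinds.

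The promoters of Rag1, Rag2, Dntt and Lig4, whose measured differences were the largest, are shown because they contrast in base composition although these genes were lower together. Each is the RefSeq window from 250 bases before to 50 bases after the gene's start in GRCm38.p6, written 5′ to 3′ on the gene's strand with every CG dinucleotide in capitals. The windows are chr2:101649483-101649782 on the minus strand for Rag1, chr2:101624462-101624761 on the plus strand for Rag2, chr19:41029025-41029324 on the plus strand for Dntt and chr8:9977631-9977930 on the minus strand for Lig4.
Rag1: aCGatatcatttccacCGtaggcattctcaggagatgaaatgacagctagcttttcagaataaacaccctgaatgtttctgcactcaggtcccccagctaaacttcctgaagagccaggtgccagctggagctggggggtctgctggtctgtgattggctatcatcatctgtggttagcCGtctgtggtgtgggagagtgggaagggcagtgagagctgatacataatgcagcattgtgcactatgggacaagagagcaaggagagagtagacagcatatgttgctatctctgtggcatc
Rag2: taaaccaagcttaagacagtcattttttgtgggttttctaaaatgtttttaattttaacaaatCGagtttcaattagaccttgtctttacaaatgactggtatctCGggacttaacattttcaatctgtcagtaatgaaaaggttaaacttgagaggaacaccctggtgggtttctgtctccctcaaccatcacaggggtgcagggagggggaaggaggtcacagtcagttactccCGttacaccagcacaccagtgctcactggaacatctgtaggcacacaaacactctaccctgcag
Dntt: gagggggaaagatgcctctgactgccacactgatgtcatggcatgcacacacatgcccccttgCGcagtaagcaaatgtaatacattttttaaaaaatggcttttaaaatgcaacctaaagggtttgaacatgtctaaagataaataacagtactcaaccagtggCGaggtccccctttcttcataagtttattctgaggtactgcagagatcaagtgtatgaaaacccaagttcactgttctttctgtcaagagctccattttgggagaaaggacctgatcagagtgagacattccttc
Lig4: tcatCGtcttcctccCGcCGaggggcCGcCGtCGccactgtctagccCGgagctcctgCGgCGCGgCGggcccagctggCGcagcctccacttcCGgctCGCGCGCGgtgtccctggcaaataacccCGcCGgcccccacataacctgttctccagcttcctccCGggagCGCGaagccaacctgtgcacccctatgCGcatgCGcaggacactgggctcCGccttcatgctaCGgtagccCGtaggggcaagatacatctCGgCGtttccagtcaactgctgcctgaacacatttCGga

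The windows of Rag1, Rag2 and Dntt held 3, 3 and 2 CG dinucleotides, and that of Lig4 held 30. The ratio of observed to expected CG, which corrects for C and G content, was 0.16 for Rag1, 0.22 for Rag2 and 0.15 for Dntt. It was 0.94 for Lig4, 0.97 for Xrcc4 and 1.04 for Xrcc6, with 0.53 for Xrcc5 and 0.52 for Nhej1. The median over 32851 windows of the same length was 0.38. The 3 lymphoid-specific genes thus lay below that median and the 5 general genes with a window and a measured signal lay above it, whether or not they differed between groups. A second RefSeq window of Lig4 had a ratio of 0.86.

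**Figure D1:**
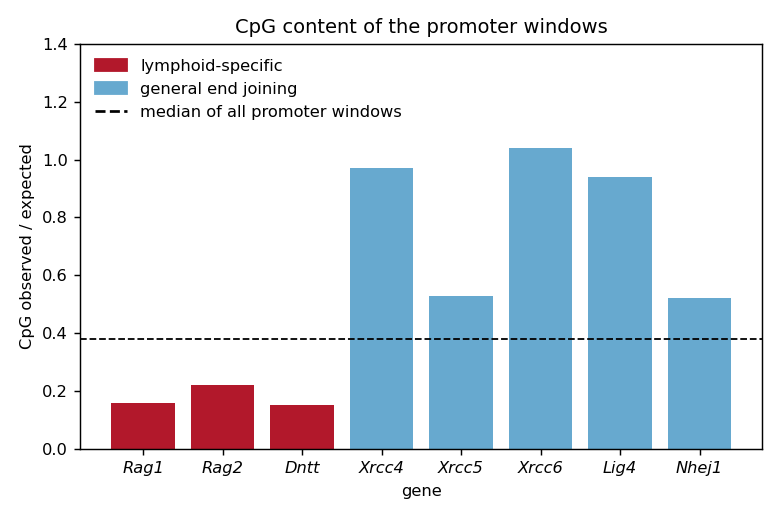
Ratio of observed to expected CG dinucleotides (vertical axis) in the promoter window of each measured gene with a RefSeq entry (horizontal axis), coloured by class, with the median of all windows as a dashed line at 0.38. Rag1, Rag2 and Dntt stand at 0.15 to 0.22, below the line, and the general genes at 0.52 to 1.04, above it.

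Short motifs were searched on both strands of these windows. The sequence GGGCGG, the core of the GC box, matched in none of the Rag1, Rag2, Dntt, Xrcc5 and first Lig4 windows, 3 times in each of Xrcc4 and Xrcc6, 2 times in Nhej1 and the second Lig4 window, 1 time in Dclre1c, and in 35.7% of all windows. The E-box CANNTG, the type of site that E2A proteins bind, matched 4 times in Rag1, 3 times in Dntt, 2 times in Rag2, Dclre1c, Xrcc5 and each Lig4 window, 1 time in Xrcc6 and Nhej1, and not in Xrcc4. It was present in 72.3% of all windows. Neither TATAAA, the TATA box, nor GTAAACA, a forkhead type sequence, matched in a member's window. They were present in 13.6% and 3.65% of all windows.

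Rag1 encodes the subunit that carries the cutting activity. Its log2 signal was 10.46 and 10.74 in the premalignant preparations, 9.57 and 9.17 with shEzh2.781, and 8.45 and 8.38 with shEzh2.556. The groups did not overlap, and they stood in the order premalignant, shEzh2.781, shEzh2.556. Relative to premalignant cells Rag1 was lower by 1.23 (SE 0.15) with shEzh2.781, a 2.34-fold difference (limma, adjusted p = 0.000252), and by 2.19 (SE 0.15) with shEzh2.556, a 4.55-fold difference (adjusted p = 2.02e-06). Over the 4 lymphoma arrays it was 3.26-fold lower (adjusted p = 4.54e-06).

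Rag2 encodes the regulatory subunit, which binds methylated histone H3. It read 8.39 and 8.43 in premalignant cells, 7.28 and 7.12 with shEzh2.781, and 6.44 and 6.2 with shEzh2.556. The order of the groups was that of Rag1, again with no overlap. Rag2 was lower by 1.22 (SE 0.12) with shEzh2.781 (limma, adjusted p = 7.09e-05) and by 2.09 (SE 0.12) with shEzh2.556 (adjusted p = 7.14e-07). Taken per array, the shift of Rag1 from its premalignant mean and the shift of Rag2 from its own differed by 0.18 or less on the log2 scale on each of the 6 arrays, against shifts of the pair's average between -1.08 and -2.22 on the lymphoma arrays. On the shEzh2.556 arrays Rag2 was near the low end of the array, so the likeness of the shifts there is of values as measured. Rag1 and Rag2 lie next to each other on chromosome 2 and their probe sets are separate.

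Signal near the floor limits the size of the Rag2 difference with shEzh2.556. The files hold no detection calls, so 1027 olfactory receptor genes, which B cells are not known to use, served as a low-signal reference. Their median was 4.54 to 4.72 across arrays and their 95th percentile 6.22 to 6.53. Rag2 exceeded 99.4% of them on both shEzh2.781 arrays but 93.6% and 91.2% of them on the shEzh2.556 arrays, below the 95th percentile. With that percentile as the floor, Rag2 was at least 3.77-fold lower with shEzh2.556, where the measured means gave 4.27-fold.

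Dntt, which encodes the template-free polymerase that diversifies the joins, read 7.38 and 8.11 in premalignant cells, 5.04 and 5.03 with shEzh2.781, and 5.16 and 5.19 with shEzh2.556. The premalignant preparations differed by more than any other pair of replicates of this gene, and all 4 lymphoma arrays lay below both. The measured difference over the lymphomas was 2.64 (SE 0.16) on the log2 scale, 6.25-fold (limma, adjusted p = 9.1e-07), and 16 of the 19938 genes had a more negative one. On the lymphoma arrays Dntt exceeded 64.5% to 67.6% of the olfactory receptor genes, so its level there is a bound, and against their 95th percentile it was at least 2.59-fold lower. Unlike the Rag genes, Dntt did not separate the hairpins: shEzh2.781 minus shEzh2.556 was -0.14, with a 95% confidence interval of -0.55 to 0.27 (adjusted p = 0.627), at a signal where the array could show little.

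**Figure D2:**
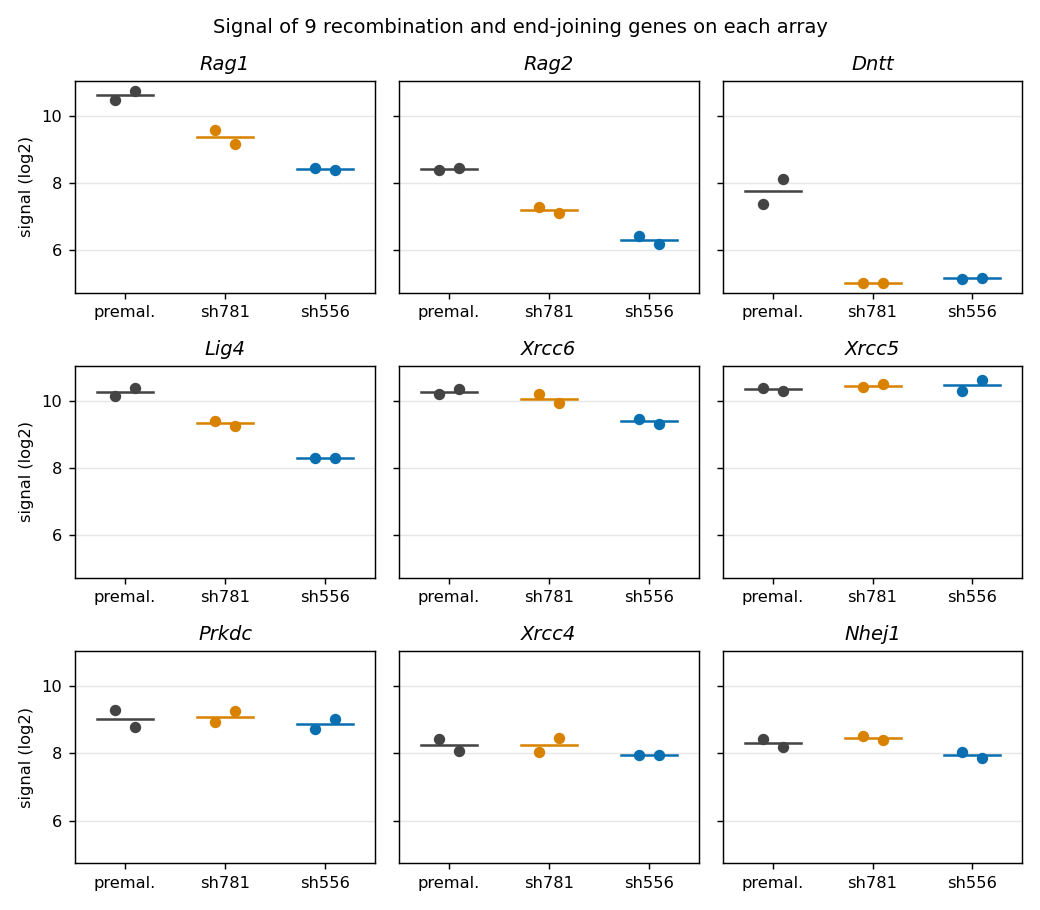
Log2 signal (vertical axis) of the 9 measured genes on each array, 2 points per group with a line at the group mean, for premalignant cells, shEzh2.781 lymphomas (sh781) and shEzh2.556 lymphomas (sh556). Rag1, Rag2 and Lig4 step down from group to group, Dntt lies near 5 in all lymphomas, and Xrcc5 stays between 10.30 and 10.62.

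Among the general end-joining genes Lig4 stood apart. Its signal was 10.14 and 10.38 in premalignant cells, 9.41 and 9.25 with shEzh2.781, and 8.31 and 8.31 with shEzh2.556. No group overlapped another. Lig4 was lower by 0.93 (SE 0.12) with shEzh2.781, 1.90-fold (limma, adjusted p = 0.000453), and by 1.95 (SE 0.12) with shEzh2.556, 3.87-fold (adjusted p = 1.11e-06). Over all lymphomas its difference of -1.44 had a 95% confidence interval of -1.67 to -1.21, and it ranked 124th from the lowest of the 19938 genes.

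Lig4 is transcribed away from Abhd13, which encodes a predicted hydrolase, and the 2 annotated starts lie 37 bases apart, so their promoter windows share 136 bases. Abhd13, a gene added after its values were seen, read 9.73 and 9.79 in premalignant cells, 9.71 and 9.62 with shEzh2.781, and 9.38 and 9.53 with shEzh2.556. All 4 lymphoma arrays were below both premalignant arrays, that of shEzh2.781 replicate 1 just so. Its difference over the lymphomas, -0.20 with a 95% confidence interval of -0.42 to 0.02, did not pass the test (limma, adjusted p = 0.225) and lay outside the interval of Lig4.

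The Ku genes parted. Xrcc6, which encodes Ku70, read 10.19 and 10.34 in premalignant cells, 10.19 and 9.92 with shEzh2.781, and 9.47 and 9.30 with shEzh2.556. The shEzh2.781 arrays reached up to the lower premalignant one, from which replicate 1 differed by less than the printed digits show, and the shEzh2.556 arrays lay below all others. Xrcc6 was lower by 0.88 (SE 0.13) with shEzh2.556, 1.84-fold (limma, adjusted p = 0.000624), while with shEzh2.781 its difference was -0.21, with a 95% confidence interval of -0.50 to 0.07 (adjusted p = 0.396). Over the lymphomas it was 1.46-fold lower (adjusted p = 0.00588), a call that was lost without premalignant replicate 2 (adjusted p = 0.0819) and with the 4 lymphomas fitted as 1 group (adjusted p = 0.253).

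Xrcc5, which encodes Ku80, the partner of Ku70 in an obligate dimer, read 10.38 and 10.30 in premalignant cells, 10.41 and 10.49 with shEzh2.781, and 10.30 and 10.62 with shEzh2.556. These groups overlapped. Its difference over the lymphomas was 0.12, with a 95% confidence interval of -0.13 to 0.36 (limma, adjusted p = 0.568). The shift of Xrcc6 minus that of Xrcc5 was -0.76 and -1.25 on the shEzh2.556 arrays, against -0.14 and -0.50 on the shEzh2.781 arrays and -0.11 and 0.11 on the premalignant ones. In the reference Xrcc6 overlaps Desi1, whose difference of -0.21 did not pass the test (adjusted p = 0.215).

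The remaining general genes overlapped between premalignant cells and lymphomas. Prkdc, the gene of the catalytic subunit of the DNA-dependent kinase, read 9.28 and 8.79 in premalignant cells and 8.73 to 9.24 on the lymphoma arrays, a difference of -0.05 (limma, adjusted p = 0.864) with a 95% confidence interval of -0.38 to 0.27. Xrcc4, the scaffold that stabilizes DNA ligase IV, read 8.41 and 8.07 in premalignant cells and 7.94 to 8.45 in lymphomas, a difference of -0.15 with an interval of -0.44 to 0.15 (adjusted p = 0.547). The gene of the other core joining factor, Nhej1, read 8.42 and 8.19 in premalignant cells, 8.52 and 8.38 with shEzh2.781, and 8.05 and 7.85 with shEzh2.556. Its shEzh2.556 arrays lay below the others, but its difference from premalignant cells of -0.36, with an interval of -0.64 to -0.08, did not pass (adjusted p = 0.076). Intervals of this width do not show that the genes were unchanged.

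By class, 3 of 3 lymphoid-specific and 2 of 6 general genes were called lower in lymphomas than in premalignant cells by limma, and 0 higher at an adjusted or an unadjusted p under 0.05, where 9.61% of all 19938 genes were called lower and 5.6% higher. The medians of the log2 difference were -1.71 for the lymphoid-specific genes (-1.56 with Rag2 and Dntt at the floor), -0.13 for the general genes and 0.03 for all genes. With shEzh2.781 the calls were 3 of 3 and 1 of 6, against 6.24% of all genes lower and 4.6% higher, and the medians were -1.23, 0.02 and -0.03. With shEzh2.556 they were 3 of 3 and 2 of 6, against 11.4% lower and 6.8% higher, and the medians were -2.19 (-1.91 at the floor), -0.33 and 0.07. These comparisons share the premalignant arrays. Lymphoma arrays lay below both premalignant arrays without exception for 5 of the 9 genes, namely Rag1, Rag2, Dntt, Lig4 and Xrcc6, and for 16.1% of all genes.

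Averaged over each class, the lymphoid-specific genes shifted from the premalignant mean by -1.62 and -1.82 on the shEzh2.781 arrays and by -2.24 and -2.33 on the shEzh2.556 arrays. Dntt was below the floor on all 4 and Rag2 on both shEzh2.556 arrays, and with these at the floor, the 95th percentile of the olfactory receptor genes, the averages were -1.21 and -1.42, then -1.75 and -1.82. The general genes shifted by -0.16 and -0.12, then by -0.61 and -0.56. Without Lig4 the general average was -0.02 and 0.06 with shEzh2.781, and -0.34 and -0.29 with shEzh2.556, where the premalignant arrays lay at 0.10 and -0.10. The shEzh2.556 arrays thus lay below both premalignant arrays in each class average, and the shEzh2.781 arrays in that of the general genes only when Lig4 was counted.

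**Figure D3:**
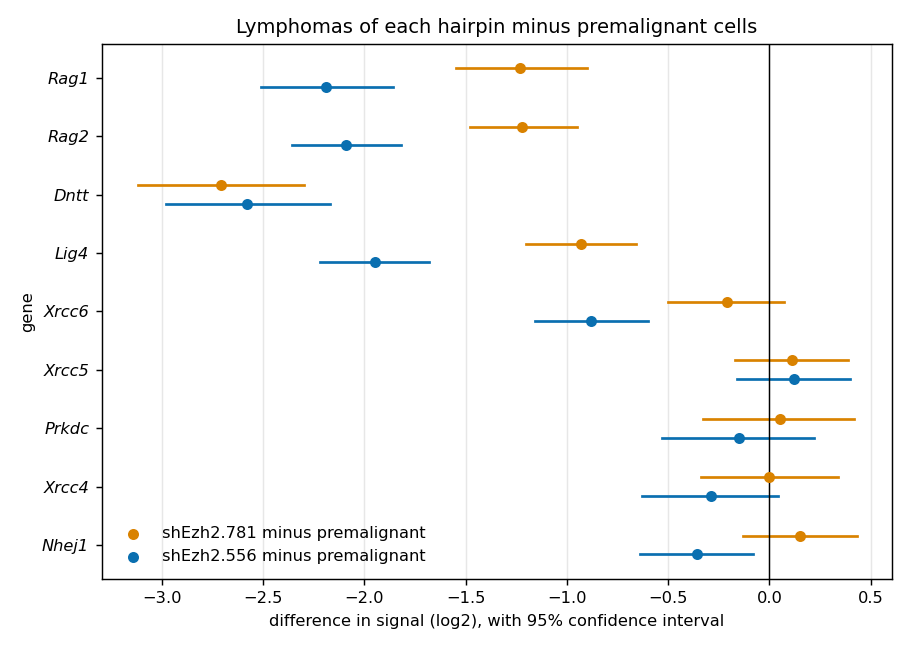
Difference in log2 signal from premalignant cells (horizontal axis), with 95% confidence interval, for each measured gene (vertical axis) and hairpin. The intervals of Rag1, Rag2, Dntt and Lig4 lie below 0 with both hairpins, those of Xrcc6 and Nhej1 with shEzh2.556, the last not called after adjustment, and those of Xrcc5, Prkdc and Xrcc4 include 0. Dntt with both hairpins, and Rag2 with shEzh2.556, are plotted as measured, near the floor of the array in lymphomas.

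Between the hairpins, 5 of the 9 genes were called higher with shEzh2.781 than with shEzh2.556 and 0 lower, also at an unadjusted p under 0.05, where 5.5% of all genes were called higher and 4.53% lower. They were Lig4 by 1.02 (SE 0.12), Rag1 by 0.96 (SE 0.15), Rag2 by 0.88 (SE 0.12), Xrcc6 by 0.67 (SE 0.13) and Nhej1 by 0.50 (SE 0.13) on the log2 scale, with limma adjusted p-values of 0.000485, 0.00259, 0.00134, 0.00911 and 0.0323. In fold terms these ran from 2.03 for Lig4 to 1.42 for Nhej1. Rag2 was below the floor on the shEzh2.556 arrays, and against that floor its difference was at least 0.70, or 1.62-fold. The median difference was 0.88 for the lymphoid-specific genes (0.70 at the floor), 0.40 for the general genes and -0.07 for all genes. The call of Xrcc6 was lost without shEzh2.781 replicate 1 (adjusted p = 0.0602) or shEzh2.556 replicate 2 (adjusted p = 0.0659), which left 3 genes called, and that of Nhej1 without either of these, without shEzh2.556 replicate 1 (adjusted p = 0.0646) and after quantile normalization (adjusted p = 0.0696).

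The arrays of 4 members, Rag1, Rag2, Lig4 and Xrcc6, fell without overlap in the order shEzh2.556, shEzh2.781, premalignant, which 6.76% of all genes did, though for Xrcc6 the upper step was smaller than the printed digits show. Of the 19938 genes, 138, or 0.692%, were called lower with each hairpin and also lower with shEzh2.556 than with shEzh2.781, and Rag1, Rag2 and Lig4 were among them. Ezh2 did not share this order, since its signal was lower with shEzh2.781 than with shEzh2.556.

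Genes with the most similar profiles were found by the root mean square difference over the 6 arrays after each gene was centred on its own mean. By this measure Rag2 was the nearest of all genes to Rag1, at 0.119, followed by Arhgap18 at 0.142 and by Lig4 at 0.148. The median gene stood at 0.936. Rag2 was taken as measured, below the floor on both shEzh2.556 arrays. Nearest to Rag2 was Cd1d1, which encodes a lipid-presenting molecule, at 0.085, before Rag1 at 0.119 and Lig4 at 0.147. Lig4 thus held rank 3 for each of the Rag genes. Its own nearest gene, added after its values were seen, was Ppp1r16b at 0.053, with Rag2 in rank 5 and Rag1 in rank 6. With 6 arrays in 3 groups many genes share such a pattern, and likeness says nothing of shared control.

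Dntt had other neighbours. Nearest was Siglech, a surface lectin known from plasmacytoid dendritic cells, at 0.140, and then Cacna1e, a calcium channel gene, at 0.141, Epha2, a receptor kinase gene, at 0.175 and Tes at 0.180, where the median gene stood at 1.277. Siglech read 8.35 and 9.26 in premalignant cells and 5.78 to 6.28 on the lymphoma arrays, all of which lay below both. On each lymphoma array Siglech, like Dntt, was below the 95th percentile of the olfactory receptor genes, so their likeness there is of signals near the floor. Of 5 measured plasmacytoid dendritic cell markers 4 were called lower in lymphomas, where 9.61% of all genes were called lower and 5.6% higher. The mean signal of these 5 markers was 8.88 and 9.45 in premalignant cells and 7.74 to 7.91 in lymphomas. The mean of 5 B-lineage markers was 11.68 and 11.50 in premalignant cells and 11.51 to 11.76 in lymphomas. Of these, Cd22 was called higher in lymphomas, by 0.55 (limma, adjusted p = 0.00309), and also with each hairpin. The other 4 were not called, among them the gene of the pan-B cell receptor component Cd79a, which differed by -0.03. The part of dendritic cells in the Dntt result was not tested.

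The hairpin difference moved with neutrophil genes. All 8 neutrophil markers were called lower in lymphomas, with a median of -2.05, and all 8 higher with shEzh2.781 than with shEzh2.556, with a median of 1.71. Of all genes, 9.61% were called lower and 5.6% higher in lymphomas, and between hairpins 5.5% higher and 4.53% lower. The mean signal of the 8 markers was 9.42 and 9.74 in premalignant cells, 8.14 and 8.73 with shEzh2.781, and 7.05 and 6.46 with shEzh2.556, the order seen for the Rag genes and Lig4. Ngp, a neutrophil granule gene, read 11.35 and 11.45, then 9.75 and 10.50, then 8.30 and 7.23. The T-lineage list averaged 6.82 and 7.24 in premalignant cells and 6.38 to 6.71 in lymphomas, with Cd4 and Cd8a called lower and the other 7 of 9 measured genes, Cd3d, Cd3e and Cd3g among them, not called. Macrophage markers averaged 7.77 and 7.93 in premalignant cells and 7.49 to 7.98 in lymphomas, with calls in both directions. Of these 6, Csf1r was called higher in lymphomas, by 0.60, and the other 5 were not called. Lyz2 was called lower with shEzh2.556, by 1.74, and Cd68 with shEzh2.781, by 0.65. NK cell markers averaged 5.92 on both premalignant arrays and 5.59 to 5.73 in lymphomas, where 3 of 5 were called lower. Of these 3, Ncr1 and Klra8 were below the 95th percentile of the olfactory receptor genes on every array, and Gzma on every lymphoma array. Their calls are thus among signals near the floor. Erythroid markers averaged 7.75 and 7.91 in premalignant cells, 6.68 and 7.03 with shEzh2.781, and 7.85 and 7.36 with shEzh2.556. All 3 measured were called lower with shEzh2.781 than with shEzh2.556, opposite to the neutrophil list. Platelet markers averaged 7.32 and 8.17 in premalignant cells and 6.18 to 6.56 in lymphomas, where 3 of 4 measured were called lower. The part of such cells in these results was not tested, and in bulk samples fewer cells of a type and less RNA per cell cannot be told apart.

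**Figure D4:**
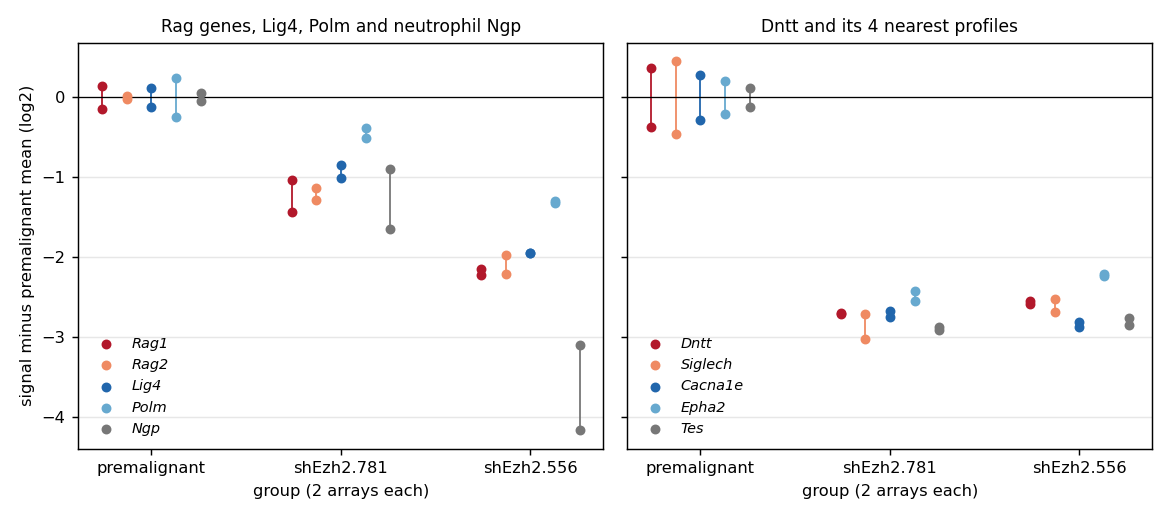
Log2 signal minus the premalignant mean (vertical axis) by group (horizontal axis), 2 joined points per gene and group. Left, Rag1, Rag2, Lig4, Polm and the neutrophil gene Ngp are lowest with shEzh2.556, and right, Dntt and its 4 nearest genes lie at similar levels with both hairpins. Dntt, Siglech and Tes in all lymphomas, and Rag2 with shEzh2.556, are plotted as measured, near the floor of the array.

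Further end-joining factors were read from lists of pathway genes. Of 11 measured, 2 were called lower in lymphomas and 1 higher, where 9.61% of all genes were lower and 5.6% higher, and the list median was -0.06. Polm encodes the polymerase mu that fills gaps at the joins, a relative of Dntt. It read 10.06 and 10.56 in premalignant cells, 9.93 and 9.80 with shEzh2.781, and 9.01 and 8.99 with shEzh2.556. All lymphoma arrays lay below both premalignant ones, and the shEzh2.556 arrays lowest. Polm was lower by 1.31 (SE 0.15) with shEzh2.556 (limma, adjusted p = 0.000104) and its difference with shEzh2.781 was -0.45 (adjusted p = 0.0892). The difference between hairpins, 0.87, passed the test (adjusted p = 0.00500).

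Poll, the gene of the related polymerase lambda, went the other way. It read 7.47 and 7.44 in premalignant cells and 7.67 to 8.0 on the lymphoma arrays, all above both. Its difference was 0.38 (SE 0.11; limma, adjusted p = 0.0398), it did not pass for either hairpin alone, and the call was lost without either premalignant array, without shEzh2.781 replicate 2, without shEzh2.556 replicate 1 and with the 4 lymphomas as 1 group. Wrn, a helicase and exonuclease gene, was lower by 0.60 in lymphomas (adjusted p = 0.00273). The other 8, Aplf, Aptx, Paxx, Cyren, Ercc6l2, Dclre1b, Tdp1 and Tdp2, were not called, with differences from -0.24 to 0.08. Between hairpins 2 of the 11, Polm and Wrn, were called higher with shEzh2.781 and 0 lower, against 5.5% and 4.53% of all genes. The call of Wrn was lost in 7 of 13 alternatives. With the 4 lymphomas fitted as 1 group neither Polm nor Wrn was called over the lymphomas.

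Of 8 partners of the recombinase and genes of its turnover, 1 was called lower in lymphomas and 0 higher, against 9.61% and 5.6% of all genes. It was Hmgb1, lower by 0.44 (limma, adjusted p = 0.0403) and not called in 6 of 13 alternatives, quantile normalization and median centring among them. The list median was -0.17. Hmgb1 encodes a DNA-bending protein that assists RAG binding. Skp2, Cdk2 and Ccna2, which act in the cell-cycle dependent destruction of RAG2, had differences of -0.12, -0.18 and -0.28 that did not pass. With shEzh2.781, limma called 0 of the 8, against 6.24% of all genes lower and 4.6% higher, with 1 lower at an unadjusted p under 0.05. Between hairpins Rbx1, a ubiquitin ligase subunit gene, was called higher with shEzh2.781 by 0.51 (limma, adjusted p = 0.0450), a call lost in 5 of 13 alternatives.

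Regulators of Rag transcription were read next. Of 20, 15 were called lower in lymphomas and 1 higher, against 9.61% and 5.6% of all genes, with a median of -0.46 against 0.03 for all genes. The other 4, Foxp1, Ikzf3, Ets1 and Bcl11a, were not called. Lef1, a transcription factor of early B and T cells, read 10.73 and 11.06 in premalignant cells and 7.73 to 7.89 on the lymphoma arrays, lower by 3.09 (SE 0.11; limma, adjusted p = 1.18e-08). Satb1 (-0.88), Runx1 (-0.83), Spib (-0.82) and Gfi1b (-0.79) followed. The other regulators called lower were Irf4 (-0.64), Foxo1 (-0.60), Irf8 (-0.53), Ebf1 (-0.49) and Tcf3, which encodes E2A (-0.48). With them were Ikzf1, Pax5 and Gfi1 (each -0.44), Myb (-0.42) and Tcf12 (-0.34). Cebpb, an inflammatory and myeloid factor, was higher by 0.37 (adjusted p = 0.0287), which did not hold without either premalignant array, shEzh2.781 replicate 1 or shEzh2.556 replicate 1, or with the 4 lymphomas as 1 group. Gfi1 (-0.44) and Gfi1b are known as repressors of the Rag genes, so the list holds genes of both actions. The count of 15 fell to 8 without premalignant replicate 2 and to 6 with the 4 lymphomas fitted as 1 group, while Lef1, Foxo1, Runx1 and Spib kept their calls in all 13 alternatives.

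By hairpin, 9 of the 20 regulators were called lower with shEzh2.781, with a median of -0.37, and 14 with shEzh2.556, with a median of -0.53, where 6.24% and 11.4% of all genes were called lower. These counts fell to 5 and 9 without premalignant replicate 2, and the second also to 9 without shEzh2.556 replicate 1. Between hairpins 3 were called higher with shEzh2.781, namely Irf4 by 0.74, Gfi1 by 0.63 and Spib by 0.40. Satb1 was called lower, with a difference of -0.79 (limma, adjusted p = 0.0199). Of all genes, 5.5% were called higher in this comparison and 4.53% lower. The call of Satb1 was lost without shEzh2.781 replicate 2 or either shEzh2.556 array, and that of Spib without any 1 of the 4 lymphoma arrays, with a replicate block and after quantile normalization. The other 16 of the 20 regulators were not called between hairpins. Foxo1, Ebf1, Tcf3, Pax5 and Ikzf1 were among them, with differences of -0.16 to 0.25, where Rag1 and Rag2 differed by 0.96 and, as measured, 0.88.

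**Figure D5:**
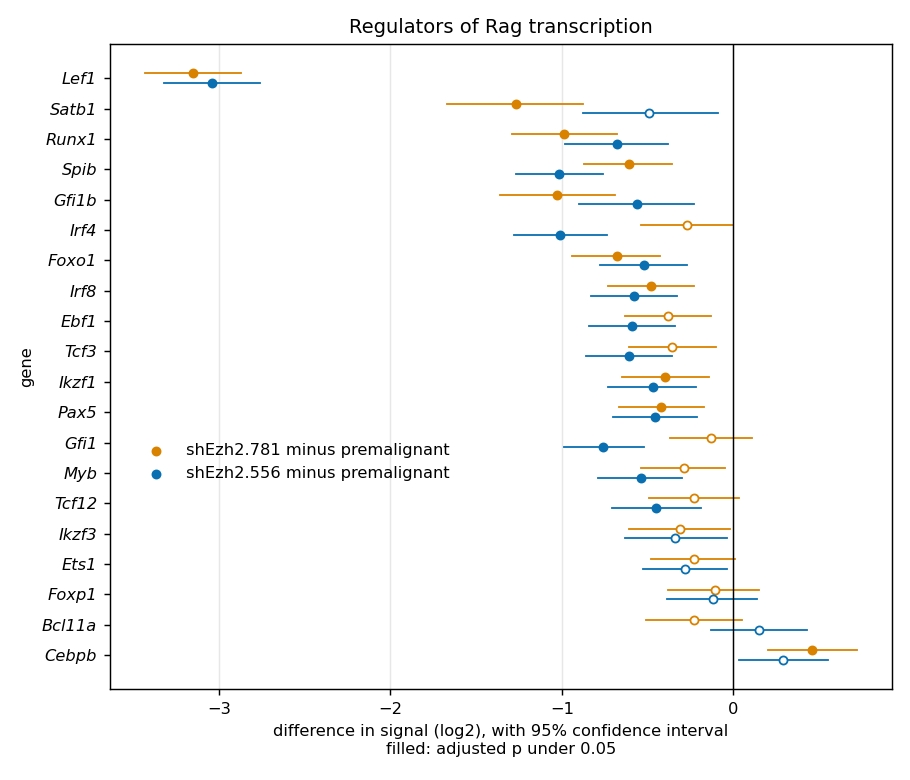
Difference in log2 signal from premalignant cells (horizontal axis), with 95% confidence interval, for 20 regulators of Rag transcription (vertical axis) and each hairpin, with filled points for adjusted p under 0.05. Lef1 lies near -3 with both hairpins and Cebpb is the 1 gene called higher.

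Of 10 measured genes that signal or shield the break, 1 was called lower in lymphomas and 0 higher, against 9.61% and 5.6% of all genes. It was Mdc1, a scaffold of the damage response, lower by 0.41 (limma, adjusted p = 0.0120). Its call was lost without either premalignant array and with the 4 lymphomas as 1 group. The list median was -0.13. Atm, the kinase that responds to RAG breaks, had a difference of -0.21 that did not pass (adjusted p = 0.351). Nbn was called higher with shEzh2.781, by 0.48, but not without either shEzh2.781 array or premalignant replicate 2, or with its probe sets averaged. Rif1 was called lower with shEzh2.556, by 0.52, but not without premalignant replicate 1 or shEzh2.556 replicate 1, or after quantile normalization. Of 10 measured genes of alternative end joining, the back-up route, limma called 0 in lymphomas and 0 with shEzh2.781. Of all genes, 9.61% and 6.24% were called lower in these comparisons and 5.6% and 4.6% higher. At an unadjusted p under 0.05, 3 and 1 of the 10 were lower and 0 and 1 higher. Lig1 was called lower with shEzh2.556, by 0.38, a call lost without any 1 of the premalignant or shEzh2.556 arrays and with a replicate block. The other DNA ligase genes therefore differed from Lig4 in size, with Lig1 at -0.25 and Lig3 at 0.13 over the lymphomas against -1.44.

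Genes of locus accessibility and loop extrusion, by which distant segments are brought to the recombinase, were lower in part. Of 11 measured, 4 were called lower in lymphomas, against 9.61% of all genes, with a median of -0.28: Smarca4, a chromatin remodeller, by 0.75, Nipbl, the cohesin loader, by 0.58, Smc1a by 0.40 and Rad21 by 0.36. With shEzh2.781 the count was 2, against 6.24% of all genes, and with shEzh2.556 it was 8, against 11.4%. The count of 4 fell to 2 after median centring, with the 4 lymphomas as 1 group and without premalignant replicate 1 or shEzh2.556 replicate 1, with Smarca4 and Nipbl kept, and that of 8 fell to 2 without either of the same arrays. The count of 2 with shEzh2.781 fell to 1, Smarca4, after centring, without either premalignant array and without shEzh2.781 replicate 2. Between hairpins limma called 0, against 5.5% of all genes higher and 4.53% lower, with 4 higher at an unadjusted p under 0.05.

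Other genes of the pro- and pre-B stages, at which RAG acts in the B lineage, did not move alike. Igll1, a surrogate light chain gene, read 11.26 and 11.79 in premalignant cells, 8.41 and 7.11 with shEzh2.781, and 7.68 and 7.73 with shEzh2.556. It was lower by 3.79 in lymphomas (limma, adjusted p = 3.15e-06), and its hairpin groups overlapped. Vpreb1, of the same receptor, was lower by 1.29 as measured, with its signal below the 95th percentile of the olfactory receptor genes on each lymphoma array. Vpreb2 (-0.29) and Vpreb3 (-0.13) were not called over the lymphomas. Vpreb2 was called lower with shEzh2.781, by 0.56 (limma, adjusted p = 0.00921). Between hairpins Vpreb2 was called lower with shEzh2.781, by 0.54, and Vpreb3 higher, by 0.43. Il7r, the receptor of the cytokine that sustains these stages, read 10.95 and 11.68 in premalignant cells, 11.72 and 11.30 with shEzh2.781, and 9.66 and 9.58 with shEzh2.556. Its shEzh2.556 arrays lay below all others, and the hairpins differed by 1.89 (adjusted p = 0.000244), a call kept in all 13 alternatives. Over the lymphomas Il7r was called lower, by 0.75 (limma, adjusted p = 0.0132), a call lost in 2 of 13 alternatives. Erg, another gene chosen for these stages, was lower by 0.89 in lymphomas (limma, adjusted p = 0.000336) and also called lower with each hairpin. The calls of Erg were not followed under the alternatives.

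Genes beside the members on the chromosome, added after their values were seen, were read as well. Traf6, beside Rag1, was lower by 0.38 (limma, adjusted p = 0.0179), though not without either premalignant array or shEzh2.781 replicate 2, or with the 4 lymphomas as 1 group. Iftap, which overlaps Rag2 in the reference, read 5.36 and 5.68 in premalignant cells and 4.20 to 4.70 in lymphomas, within the range of the olfactory receptor genes on every array. It was called lower, by 1.06 as measured (adjusted p = 0.00011), and kept that call in all 12 alternatives that included it. Blnk, a B-cell adaptor gene beside Dntt, was lower by 0.48 (adjusted p = 0.0121), though not without premalignant replicate 2 or with the 4 lymphomas as 1 group. Beside Prkdc, Mcm4 had a difference of -0.15 that did not pass (adjusted p = 0.380), and Mzt2 was called higher with shEzh2.781, by 0.43 (adjusted p = 0.0417), a call lost in 6 of 13 alternatives.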

How the data were processed

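The authors deposited 1 log2 value per probe set and array of the Affymetrix Mouse Gene 1.0 ST array. That the scale is log2 follows from the range of the values. How background was corrected and arrays normalized is not given in the sources used here. The median signal was 6.75 to 6.91 across arrays. Of 35512 probe sets, 21789 had 1 gene symbol, 1621 several and 12102 none, and only the first kind was used. For 999 genes with several probe sets the one with the highest mean was kept, which gave 19938 genes. The number of arrays limits precision.

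The 3 groups were fitted together in limma 3.58.1 (R 4.3.3; 3 residual and 8.51 prior degrees of freedom), with Benjamini-Hochberg adjustment over all genes and calls at 0.05. The fit was tested on simulated data. The members, pathway lists and cell markers were chosen with earlier results of these data known, and any listed gene could be named. Named beyond them were the 4 nearest profiles of each lymphoid-specific gene and, after values were seen, neighbouring genes and the profiles nearest to Lig4. Promoters came from RefSeq (GRCm38.p6), where 9 of the 10 members matched and Prkdc did not. Tables were made in Python 3.11.15 with numpy 2.4.6 and pandas 2.3.3, and figures with matplotlib 3.10.9. Alternatives were quantile normalization, median centring, a signal filter, averaged probe sets, a variance trend, a replicate block, fewer or merged groups and leaving out each array.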

Additional observations from a re-analysis of the deposited data

Results flagged for a closer look

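For 5 of the 9 measured genes the signal differed between shEzh2.781 and shEzh2.556 lymphomas, as the limma test of shEzh2.781 minus shEzh2.556 passed the threshold. Of all genes, 5.5% were called higher and 4.53% lower. The hairpin and other differences between these tumours cannot be told apart. The differences of the 5 genes were 1.02 for Lig4, 0.96 for Rag1, 0.88 for Rag2, 0.67 for Xrcc6 and 0.50 for Nhej1 on the log2 scale. Rag2 was below the floor on the shEzh2.556 arrays, which makes its difference at least 0.70. For each of these genes both shEzh2.781 arrays lay above both shEzh2.556 arrays, but the genes were chosen by this same difference, so that adds no support. Groups of 2 arrays are too small to tell whether a single array stands apart.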

How the results depend on the processing

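Rag1, Rag2, Dntt and Lig4 kept their calls against premalignant cells, and Rag1, Rag2 and Lig4 between hairpins, under every alternative that included them, and the filter at a mean of 7 left Dntt out. Over all 4 comparisons, 236 of the values of called members under an alternative kept their call and 8 lost it. Of the calls of other pathway, stage and neighbouring genes, 10 of 32 in lymphomas, 10 of 19 with shEzh2.781, 17 of 34 with shEzh2.556 and 4 of 8 between hairpins held under every alternative run. The genes called in lymphomas numbered 3033, and 1091 with the 4 lymphomas as 1 group. With 1 array left out they numbered 1721 to 2833, those called with shEzh2.781 1103 to 2048, with shEzh2.556 1949 to 3669 and between hairpins 718 to 2085, and 3 to 5 members were called between hairpins. Differences that passed no test changed sign. Over the lymphomas Prkdc was 0.016 after quantile normalization, 0.0096 after centring and -0.29 to 0.19 with 1 array left out, Xrcc4 -0.32 to 0.023 and Nhej1 -0.22 to 0.012. With shEzh2.781 Xrcc4 was 0.06 after quantile normalization, 0.12 after centring and -0.21 to 0.21 with 1 array left out, and Prkdc -0.19 to 0.29. With shEzh2.556 Prkdc was -0.40 to 0.085 and Xrcc5 -0.037 to 0.28, and between hairpins Xrcc5 was 0.10 after centring and -0.17 to 0.15. The cause was not tested. Centring moved the median of all genes with shEzh2.781 from -0.03 to 0.09 and the share of calls that were higher between hairpins from 54.9% to 83.2%, with shEzh2.781 from 42.4% to 67.3% and in lymphomas from 36.8% to 52.4%. Quantile normalization gave 50.2% with shEzh2.781, 50.7% with shEzh2.556 (from 37.3%) and 49.2% in lymphomas. The labels do not say whether replicate numbers pair the samples. Deviations of same-numbered arrays from their group means had correlations across genes of -0.0915, -0.124 and 0.0642. With 2 arrays per group these cannot exclude a pairing. A fit with a replicate block called 2889 genes and the same 5 members lower in lymphomas. Signal near the floor limits Dntt in all lymphomas and Rag2 with shEzh2.556.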
